A study of Arabidopsis thaliana with 6 samples.

Results

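The conserved plant microRNAs (miRNAs) miR170, miR171, miR394 and miR396, which act in growth, were followed in leaves of Arabidopsis thaliana. For sums, miR170 was joined to the miR171 family. Their members were taken as every sequence of the table that matched, over its full length and without mismatch, the sense strand of 1 of the 8 precursor loci MIR170, MIR171a, MIR171b, MIR171c, MIR394a, MIR394b, MIR396a and MIR396b. This gave 31 sequences of 18124 in the table, and of 317 at all 326 annotated MIR loci. The miR171 family held 8 of them, miR394 held 4 and miR396 held 19. Small RNA was sequenced in 6 leaf libraries, 3 from wild-type plants (WT) and 3 from rdr1 mutants, and neither genotype was treated. Plants of both genotypes were grown with 16 h of light a day at 22 °C. The enzyme for which the mutant is named, RDR1, belongs to the RNA-dependent RNA polymerases. These copy RNA into double-stranded precursors of small interfering RNAs, and the series asks which small RNAs differ in the rdr1 mutant. The labels give neither the rdr1 allele, nor the age of the plants, nor the accession of the wild type. Nor is it stated there that replicate libraries were made from different plants. The p-values below therefore reflect how far these samples differ, and that difference may be technical.

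A plant miRNA is cut by a Dicer-like enzyme from a hairpin transcript as a short duplex, of which 1 strand comes from the 5′ arm (5p) and the other from the 3′ arm (3p). The loaded strand, the guide, pairs with target mRNAs over nearly its whole length and leads to their cleavage or to a block of their translation. In Arabidopsis, miR396 acts on mRNAs of growth-regulating factors (GRFs), transcription factors that promote cell proliferation in leaves. The guides of miR171 act on mRNAs of the HAIRY MERISTEM (HAM) transcription factors, which maintain shoot meristems, and miR394 acts on the mRNA of LEAF CURLING RESPONSIVENESS (LCR), an F-box protein involved in leaf shape and in shoot stem cell competence.

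All values below are the authors' normalised values. From the values themselves, each library was taken to be scaled to 8000000 reads, so that 1 read was worth between 0.804 and 1.71. The library totals inferred in this way ranged from 4668411 to 9955668 reads. The libraries differed in more than genotype: sequences of 28 to 34 nt made up 35.3% of the summed value of WT replicate 1 and at most 26.2% of any other library, down to 4.87%. Those of 17 to 19 nt made up 35.2% of rdr1 replicate 1 and from 5.72% to 18.2% of the rest. MIR loci held 14.4% of the summed value in WT replicate 1 and 22.6% to 34.9% in the other 5. Marker miRNAs of pollen (miR840, miR845 and miR851) had no row in the table, with 0 of 3 families measured.

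The 9 annotated mature sequences that were listed are shown first because nearly all of the signal lay in them, and the guide strands among them set which mRNAs each family can pair with. They are written 5′ to 3′ as DNA, as the table gives them, with the seed (bases 2 to 8) in capitals.
miR170-3p: tGATTGAGccgtgtcaatatc
miR171a-3p: tGATTGAGccgcgccaatatc
miR171b-3p and miR171c-3p: tTGAGCCGtgccaatatcacg
miR171b-5p: aGATATTAgtgcggttcaatc
miR171c-5p: aGATATTGgtgcggttcaatc
miR394a and miR394b-5p: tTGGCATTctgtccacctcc
miR396a-5p: tTCCACAGctttcttgaactg
miR396a-3p: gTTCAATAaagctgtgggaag
miR396b-3p: gCTCAAGAaagctgtgggaaa
Guides miR170-3p and miR171a-3p shared a seed and differed by T12C and T14C, read from miR170-3p to miR171a-3p with positions counted from 1 at the 5′ end. The guide of MIR171b and MIR171c has another seed because it starts 3 nt further along the same sequence, and over the 18 aligned bases it differed from miR171a-3p by C12T, counted in miR171a-3p. Opposite strands miR171b-5p and miR171c-5p differed by A8G, within the seed. The pair miR396a-3p and miR396b-3p differed by T2C, T7G and G21A.

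The 8 loci are annotated at 15 mature arms, which are 12 distinct sequences. Of these, 9 were listed, and the shared 5p sequence of MIR170 and MIR171a, miR394b-3p and miR396b-5p were not analysed here. Every locus had at least 1 listed sequence. In TAIR10.1, MIR170 (AT5G66045) lies on chromosome 5, 26411580 to 26411672, minus strand, and had 1 listed sequence. MIR171a (AT3G51375, chromosome 3, 19073434 to 19073556, plus strand), MIR171b (AT1G11735, chromosome 1, 3961348 to 3961464, minus strand) and MIR171c (AT1G62035, chromosome 1, 22930089 to 22930204, minus strand) had 3 each. MIR394a (AT1G20375, chromosome 1, 7058194 to 7058310, plus strand) and MIR394b (AT1G76135, chromosome 1, 28568808 to 28568928, plus strand) had 4 each, and all 4 were the same sequences, so that these loci could not be told apart. MIR396a (AT2G10606, chromosome 2, 4142323 to 4142473, minus strand) had 14 and MIR396b (AT5G35407, chromosome 5, 13611798 to 13611932, plus strand) had 9, of which they shared 4. No listed sequence lay antisense to any of the 8 precursors.

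The target sites are shown next because they are what the guides read. Each is the sense strand of the mRNA, 5′ to 3′, from TAIR10.1, with capitals at bases outside a Watson-Crick pair with the guide.
HAM1, HAM2 and HAM3: gatattggcgcggctcaatca
LCR: ggaggtTgacagaatgccaa
GRF1 and GRF2: TCgttcaagaaagcCtgtggaa
GRF3 and GRF4: cCgttcaagaaagcCtgtggaa
GRF7 and GRF8: TCgttcaagaaagcAtgtggaa
GRF9: ACgttcaagaaagctTgtggaa
Pairing was scored with 1 for a mismatch or a bulged base and 0.5 for a G:U pair, and 12 of the 14 listed target mRNAs reached a score of at most 4. The sites of HAM1 (chromosome 2, 18619128 to 18619148), HAM2 (chromosome 3, 22411544 to 22411564) and HAM3 (chromosome 4, 58411 to 58431) were identical and lay in coding sequence. They paired with miR171a-3p at 21 of 21 bases, and with miR170-3p at 19 bases plus 2 G:U pairs. The guide shared by MIR171b and MIR171c paired with the same site in a window moved by 3 nt, at 18 bases with 1 G:U pair and 2 mismatches. The LCR site (chromosome 1, 9497605 to 9497624, coding sequence) paired with miR394 at 19 of 20 bases. The sites of 7 of the 9 GRF mRNAs had 1 bulged base against miR396a-5p, as at GRF1 (chromosome 2, 9729944 to 9729965, coding sequence), where 19 bases paired. GRF5 and GRF6 scored 6.5 and 5.5 at their best windows, above the limit of 4. In bHLH74, a transcription factor mRNA also known as a miR396 target, the best window scored 3.5 and spanned an exon junction. No listed sequence, sense or antisense, matched the genomic span of the GRF, bHLH74 or LCR genes. Matches across an exon junction were not searched for. HAM1, HAM2 and HAM3 matched 3 listed sequences, all antisense, and these were the 3 forms of miR171a-3p themselves, which therefore had 4 genomic matches each. By the rule of choice a read of them was counted here for MIR171a. A small RNA cut from the antisense strand of a HAM gene would have the same letters and could not be told apart.

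The full-length miR396b-5p was not analysed here, so the levels of the miR396 family rest on its listed sequences only. By these, the miR396 family was the most abundant of the 3 and ranked 4 among the 60 miRNA families measured. Its guide miR396a-5p had values of 20527, 33728 and 52996 in WT replicates 1 to 3 and of 35320, 54461 and 37201 in rdr1 replicates 1 to 3. The lowest and the second highest of these were both in WT, so the groups overlapped. The WT mean was 35750 ± 16328 and the rdr1 mean 42328 ± 10550 (mean ± SD, n = 3), resting on 117960 and 90637 reads. With the deposited scaling rdr1 differed by 0.32 on the log2 scale (SE 0.97, limma adjusted p = 0.817), with edgeR, DESeq2 and median of ratios scaling giving values below 0. The opposite strand miR396a-3p had 1904, 2795 and 4676 in WT and 2982, 4262 and 3203 in rdr1, lowest in WT replicate 1 and highest in WT replicate 3. Its 5p partner stood 10.8 to 12.8 times above it in every library, with a median ratio of 11.7 over the 6.

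MIR396b was represented mainly by its 3p strand, since its full-length guide was not analysed here. The sequence miR396b-3p had 2831, 2244 and 6652 in WT and 3920, 6114 and 3051 in rdr1. It was lowest in WT replicate 2 and highest in WT replicate 3, so that the rdr1 values lay within the WT range. Its ratio to miR396a-3p ran from 0.803 in WT replicate 2 to 1.49 in WT replicate 1, and the strand of the 2 loci that was more abundant therefore changed between libraries of the same genotype. Of the whole miR396 3p sum, MIR396b gave 51.0% ± 8.31 in WT and 51.0% ± 4.82 in rdr1 (exact two-sided permutation p = 1, n = 3 each). A similar balance appeared in 5p sequences of 20 nt that lack the first base of the guide and end in the base that tells the loci apart. MIR396b gave 53.0% ± 2.13 of this pair in WT and 51.2% ± 1.36 in rdr1 (exact two-sided permutation p = 0.6, n = 3 each).
MIR396a, 20 nt: tCCACAGCtttcttgaactg
MIR396b, 20 nt: tCCACAGCtttcttgaactt
These shares were chosen for testing after their values were seen. Values of the MIR396a form were 119, 262 and 412 in WT and 294, 416 and 235 in rdr1, and those of the MIR396b form were 148, 279 and 446 in WT and 290, 452 and 254 in rdr1. Each form was thus lowest in WT replicate 1 and highest in rdr1 replicate 2.

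The most abundant member that was not an annotated mature sequence was a miR396 guide shortened by 1 base at its 3′ end, to 20 nt, which both loci can give.
miR396-5p, 20 nt: tTCCACAGctttcttgaact
Its values were 755, 1578 and 2248 in WT and 1656, 1991 and 1483 in rdr1, and rdr1 differed by 0.29 on the log2 scale (SE 0.64, limma adjusted p = 0.775). The groups overlapped, and the highest value was in WT replicate 3. Sequences of 21 nt made up 93.5% ± 0.949 of the miR396 sum in WT and 93.3% ± 0.938 in rdr1 (exact two-sided permutation p = 0.9, n = 3 each).

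**Figure D1:**
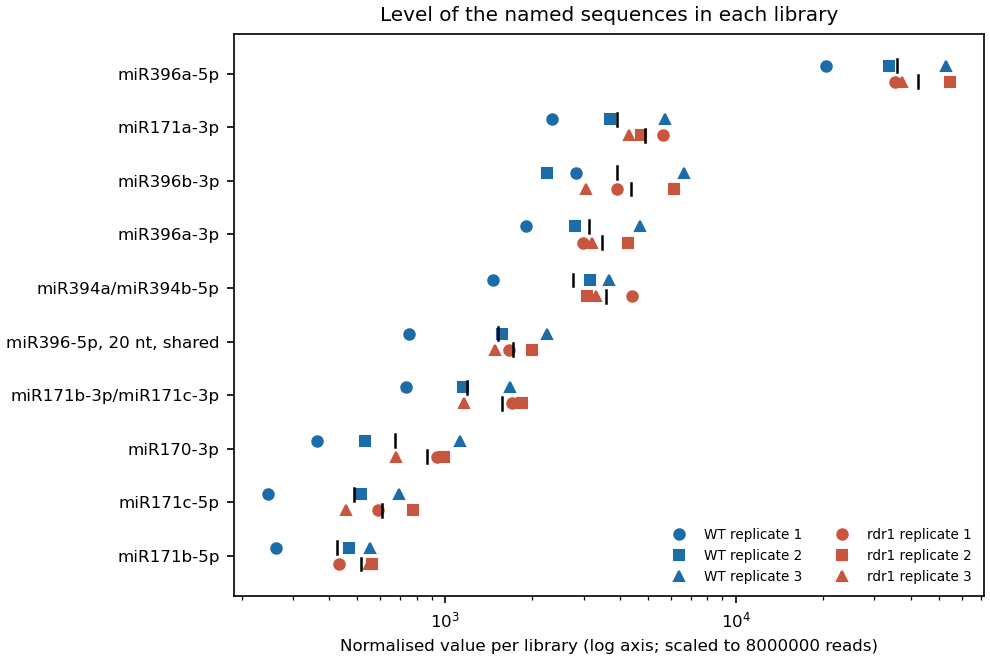
Normalised value of the 10 named sequences in each of the 6 libraries, on a log axis; each point is a library (circle, square and triangle for replicates 1, 2 and 3; blue for WT, red for rdr1) and the black ticks are group means of n = 3. The WT points spread wider than the rdr1 points and enclose or overlap them in every row, with WT replicate 1 lowest for all but miR396b-3p.

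MIR396a also gave sequences cut in other places along the hairpin. A pair of 21-nt sequences lay 7 nt further towards the base of the stem than the main pair, at bases 4 to 24 and 130 to 150 of the precursor of 151 nt. They are shown because, in a structure predicted with RNAfold, they faced each other with 3′ overhangs of 2 nt at both ends, as the main strands at 11 to 31 and 123 to 143 did.
MIR396a, bases 4 to 24: tGTATTCTtccacagctttct
MIR396a, bases 130 to 150: aAAGCTGTgggaagatacaga
The 5p member of this pair had 26.2, 49.8 and 44.2 in WT and 33.9, 73.7 and 47.3 in rdr1. The 3p member had 37.8, 34.7 and 70.7 in WT and 53.9, 104.5 and 44.8 in rdr1. Both were highest in rdr1 replicate 2, and their groups overlapped. Overhangs of 2 nt are the usual mark of Dicer cuts, but the geometry alone does not show that these were cut as a duplex. Another 3p sequence started 2 nt before miR396a-3p and was more abundant than either, with 247, 287 and 544 in WT and 394, 555 and 370 in rdr1, and would leave an overhang of 0 nt against the main 5p strand.
MIR396a, bases 121 to 141: cGGTTCAAtaaagctgtggga
It came to less than the annotated strand in every library, and its groups overlapped as well. Other MIR396 sequences on the 3′ arm were shifted or trimmed forms of miR396a-3p and miR396b-3p. The most abundant of them, miR396a-3p without its first base, had 144, 282 and 483 in WT and 376, 473 and 282 in rdr1, and the least abundant, miR396b-3p with 1 more base at the 3′ end and the only member of 22 nt, had 10.2, 7.12 and 24.9 in WT and 11.3, 34.3 and 9.69 in rdr1. Both groups overlapped in each.

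**Figure D2:**
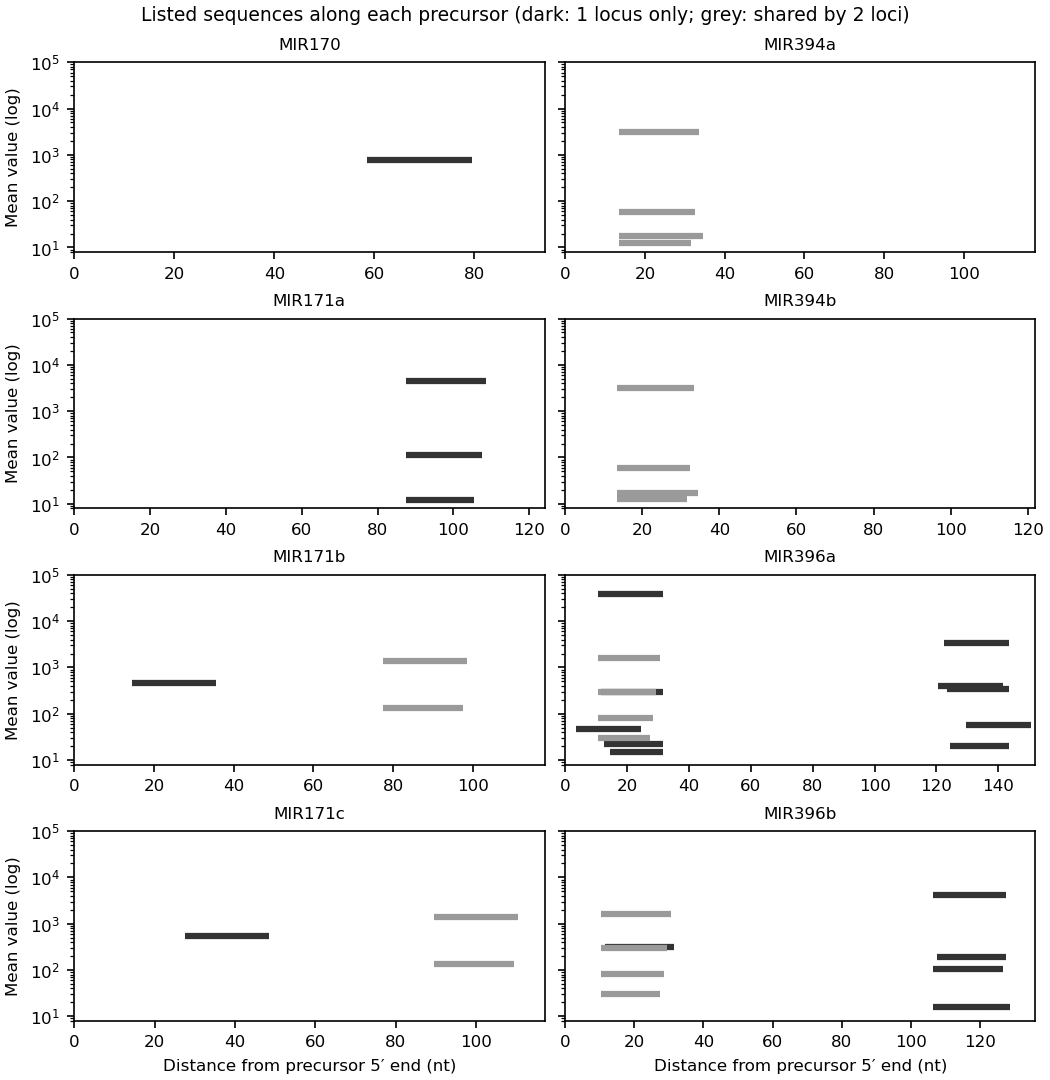
Position of each listed sequence along its precursor (x axis, nt from the precursor 5′ end) against its mean value over the 6 libraries (y axis, log); dark bars match 1 locus and grey bars match 2. MIR396a carries the most sequences, 14, in 2 clusters near the ends, while MIR170, MIR171a, MIR394a and MIR394b carry listed sequences on 1 arm.

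The miR171 family, whose guides sit on the 3′ arm, ranked 13 of the 60 families by its listed sequences. Its most abundant guide, miR171a-3p, had 2344, 3696 and 5713 in WT and 5642, 4728 and 4293 in rdr1. WT replicate 3 was the highest library and WT replicate 1 the lowest, so the groups overlapped. The means were 3917 ± 1695 and 4888 ± 689 (mean ± SD, n = 3), a difference of 0.40 on the log2 scale (SE 0.70, limma adjusted p = 0.754). The guide shared by MIR171b and MIR171c had 733, 1157 and 1676 in WT and 1701, 1842 and 1162 in rdr1. Here rdr1 replicates 1 and 2 lay above all of WT, while rdr1 replicate 3 lay within the WT range (log2 fold change 0.45, SE 0.63, limma adjusted p = 0.753). The guide miR170-3p, the least abundant of the 3, had 362, 530 and 1127 in WT and 940, 990 and 677 in rdr1, and WT replicate 3 was above every rdr1 library.

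Each of the 2 more abundant guides had a 20-nt form that lacked its last base. That of miR171a-3p had 43.6, 94.3 and 133 in WT and 167, 120 and 108 in rdr1, and that of MIR171b and MIR171c had 33.5, 110 and 168 in WT and 191, 189 and 110 in rdr1. In both, rdr1 replicate 1 was highest and WT replicate 1 lowest. The second had the lowest unadjusted p of all members, 0.178, beside an adjusted p of 0.753 (limma). Sequences of 21 nt made up 97.3% ± 0.663 of the miR171 family in WT and 96.5% ± 0.496 in rdr1 (exact two-sided permutation p = 0.3, n = 3 each).

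The order of these guides was the same in all 6 libraries. The guide miR171a-3p was 2.57 to 3.69 times as abundant as the guide of MIR171b and MIR171c and 4.77 to 6.98 times as abundant as miR170-3p. Sequences of MIR171b or MIR171c made up 21.8% ± 0.881 of the family's 3p sum in WT and 22.5% ± 2.94 in rdr1 (exact two-sided permutation p = 0.8, n = 3 each). Of the miR170-3p and miR171a-3p pair, which share a seed, miR170-3p held 14.1% ± 2.08 in WT and 15.1% ± 1.97 in rdr1 (exact two-sided permutation p = 0.5, n = 3 each), a share chosen after its values were seen. Ligation and amplification can favour some sequences, and the effect of this on ratios between sequences of 1 library was not tested.

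The 5p strands of MIR171b and MIR171c are the only members that tell these loci apart. The strand miR171b-5p had 262, 466 and 553 in WT and 433, 564 and 548 in rdr1, and miR171c-5p had 247, 514 and 697 in WT and 587, 775 and 457 in rdr1. Their order changed between libraries: miR171c-5p was above miR171b-5p in WT replicates 2 and 3 and in rdr1 replicates 1 and 2, and below it in the other 2. The share of miR171b-5p in the pair was 47.7% ± 3.60 in WT and 46.4% ± 7.07 in rdr1 (exact two-sided permutation p = 0.8, n = 3 each). In the predicted structures of both loci the strands faced the 3p guide with 3′ overhangs of 2 nt at both ends. Together the 5p strands made up 13.3% ± 1.39 of the family sum in WT and 12.9% ± 2.10 in rdr1 (exact two-sided permutation p = 0.8, n = 3 each). For miR396 the 5p arm was the larger, with 82.6% ± 3.15 in WT and 83.3% ± 1.13 in rdr1 (exact two-sided permutation p = 0.8, n = 3 each). Both 5p shares omit the 5p sequences that were not analysed here.

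**Figure D3:**
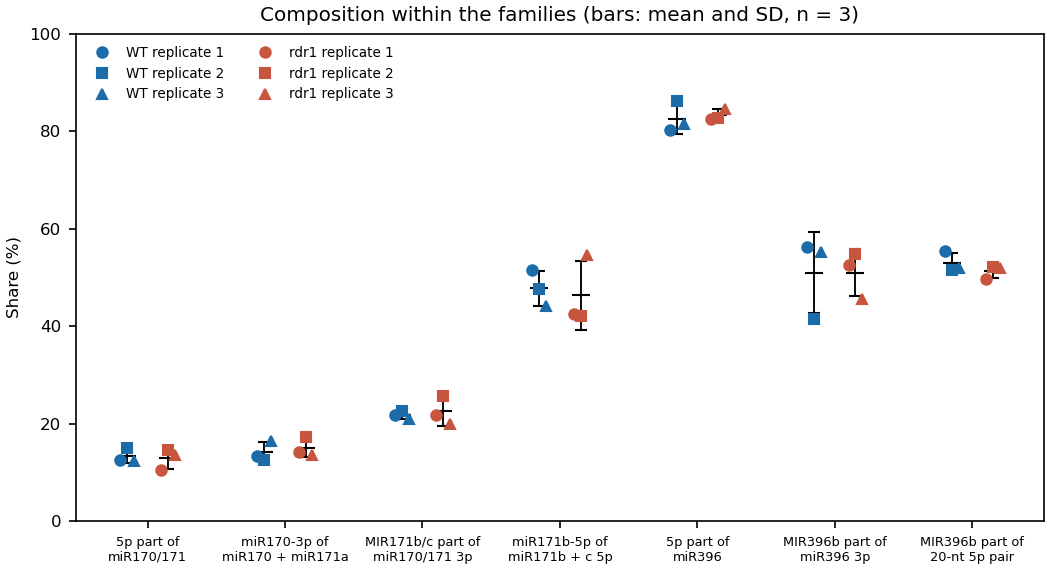
Shares of a family or of a pair of sequences, in percent of the summed value, for each library (circle, square and triangle for replicates 1, 2 and 3; blue for WT, red for rdr1), with mean and SD of n = 3 as black bars. WT and rdr1 points overlap in all 7 shares, and the 5p arm holds a minor part of miR171 and the major part of miR396.

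For miR394, MIR394a and MIR394b give the same guide of 20 nt, which made up nearly all of the family. It had 1466, 3163 and 3667 in WT and 4388, 3073 and 3311 in rdr1. The highest value was in rdr1 replicate 1 and the lowest in WT replicate 1, and the other 4 libraries lay between 3073 and 3667. The WT mean was 2765 ± 1153 and the rdr1 mean 3590 ± 701 (mean ± SD, n = 3), a difference of 0.46 on the log2 scale (SE 0.67, limma adjusted p = 0.753). A form longer by 1 base at the 3′ end held 0.434% ± 0.208 of the family in WT and 0.575% ± 0.214 in rdr1 (exact two-sided permutation p = 0.6, n = 3 each). All 4 listed sequences of miR394 started at the same base and lay on the 5′ arm.

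Features that the rule of choice did not use varied among the members. Of the 31, 20 started with T, the base that the main miRNA effector AGO1 favours at the 5′ end of its guides. Some of these 20 were shorter or longer forms of the same guide with the same first base, so they are not separate cases. The part starting with T among all MIR sequences was not counted. Lengths of the members were 21 nt for 12 sequences, 20 nt for 9, 19 nt for 4, 18 nt for 3, 17 nt for 2 and 22 nt for 1. Their means over the 6 libraries ran from 11.9 to 39039. All 31 had the mean of 5 or more that the test required.

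None of the 31 members passed the limma test between rdr1 and WT at a Benjamini-Hochberg adjusted p under 0.05. Of all 18043 sequences tested, 39 passed (0.216%). There were 16, 10 and 8 without WT replicates 1, 2 and 3, and 56, 22 and 27 without rdr1 replicates 1, 2 and 3. At an unadjusted p under 0.05 there were 0 members and 442 of all sequences (2.45%), and the lowest p of a member was 0.178. With values turned back into whole reads, edgeR called 0 members and 88 of all sequences (0.488%), with 0 members and 861 sequences (4.77%) at an unadjusted p under 0.05. DESeq2 called 0 members and 142 of all sequences (0.787%), with 0 members and 1258 sequences (6.97%) at an unadjusted p under 0.05. With shares this small, 0 of 31 is near the background and says nothing particular to the members. The log2 fold changes of the members ran from 0.24 to 1.48 with a median of 0.45, and the median of all tested sequences was 0.47. With median of ratios scaling the members' median was -0.02 and that of all sequences 0.03, and 14 of the 31 were above 0 in place of all 31. Of all tested sequences, 51.9% were above 0 with that scaling and 65.8% with the deposited scaling. Without WT replicate 1 the members' median was 0.06 and 21 were above 0, beside 52.8% of all tested sequences. Since the sign changed with the scaling and without that library, no direction is given for the members. Of the 31, 26 had their lowest value in WT replicate 1, the library with the largest part of 28 to 34 nt sequences and the smallest part of MIR loci, and the part of these in the result was not tested. A limma SE for a single sequence draws largely on the spread of sequences of like abundance. In a bulk leaf sample, fewer cells of a type and less of an RNA per cell cannot be told apart.

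The family sums, which omit the mature sequences that were not analysed here, among them full-length miR396b-5p, gave the same picture. Summed miR396 was 46325 ± 21587 in WT against 54325 ± 13486 in rdr1 (mean ± SD, n = 3), a log2 difference of 0.31 (SE 0.52). For miR171 the sums were 6892 ± 3036 and 8760 ± 1233, with 0.43 (SE 0.48). For miR394 they were 2836 ± 1192 and 3697 ± 742, with 0.47 (SE 0.47). All 3 had a limma adjusted p of 0.804, and of the 60 families tested 0 passed (0%), with 1 (1.67%) at an unadjusted p under 0.05. The values moved with single libraries: without WT replicate 1 they were -0.03 for miR396, 0.10 for the miR171 family and 0.06 for miR394, and without WT replicate 3 they were 0.66, 0.76 and 0.73. With edgeR 0 families passed and with DESeq2 1 did, which was not among these 3. By arm, the summed 5p and 3p values of the families overlapped between genotypes in all 5 cases (exact two-sided permutation p from 0.4 to 0.6, adjusted p = 0.6, n = 3 each), in a design that cannot give a p below 0.1. As a part of all MIR loci, which does not depend on the scaling of a library, miR396 ran from 7.57% to 10.5%, miR171 from 1.18% to 1.62% and miR394 from 0.472% to 0.760% over the 6 libraries, with both genotypes overlapping in each.

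**Figure D4:**
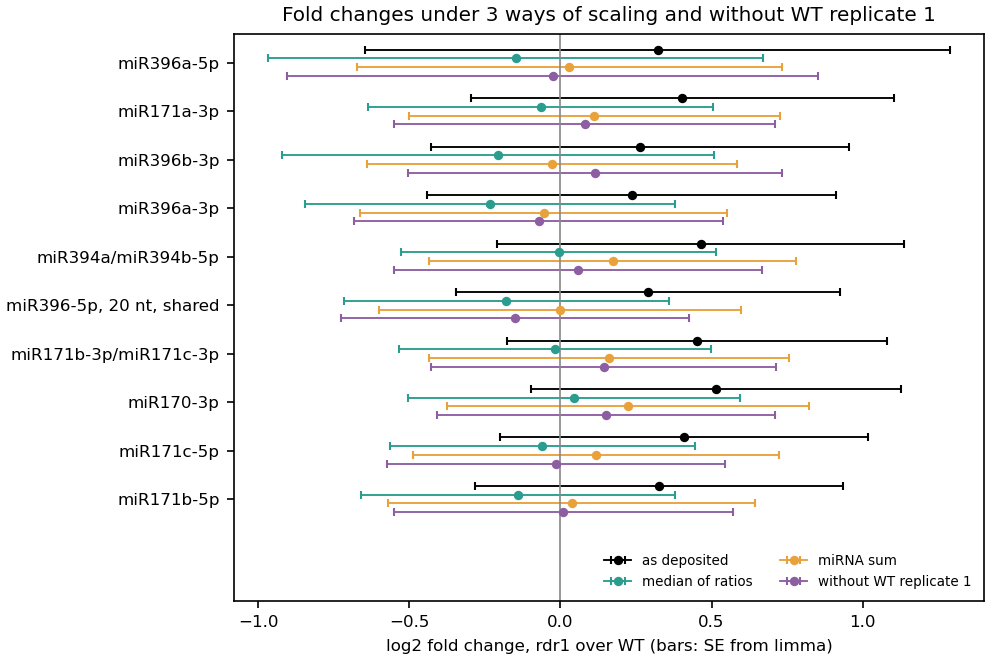
Log2 fold change of rdr1 over WT for the 10 named sequences (x axis; bars are limma SEs), with the deposited scaling, median of ratios scaling, scaling to the sum of all MIR loci, and the deposited scaling without WT replicate 1. With the deposited scaling all 10 points lie above 0, between 0.24 and 0.51, and with median of ratios scaling 9 of the 10 lie below 0; every bar crosses 0.

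Short forms of the members varied with the library. All 5 members of 17 or 18 nt were highest in rdr1 replicate 1, the library in which 17 to 19 nt made up 35.2% of the summed value. Each listed sequence reached at least 20.07 in some library. The 18-nt forms of miR171a-3p and miR394 and a 17-nt form of miR396a-5p did so only there, at 35.1, 32.6 and 45.2. For these, that library being highest follows from their being listed. The other members of 17 or 18 nt reached 20.07 elsewhere too. The 18-nt form of miR171a-3p had 2.91, 5.34 and 7.23 in WT and 35.1, 13.7 and 7.27 in rdr1, from 17 and 42 reads in all. It was 1 of 2 members whose groups did not overlap, the other being a 19-nt form of miR396a-5p that lacked its first 2 bases, with 5.82, 16.9 and 24.1 in WT and 30.1, 34.3 and 24.2 in rdr1. Both were named after their values were seen, both are higher in rdr1 by a margin of less than 1 read at the nearest libraries, and neither passed the limma test (adjusted p = 0.753 for each). Of all sequences tested, 2.98% had rdr1 above WT without overlap. As a share of the miR171 sum, the 17 to 19 nt class, here only the 18-nt form of miR171a-3p, was 0.0751% ± 0.00533 in WT and 0.203% ± 0.140 in rdr1 (exact two-sided permutation p = 0.1, the smallest that 3 against 3 can give; adjusted p = 0.956 over 17 shares). That sequence is listed only through its value in rdr1 replicate 1. Neither its lack of overlap nor this p is therefore read as a difference between the genotypes. The same class held 1.90% ± 0.397 and 2.25% ± 0.691 of miR394, and 0.884% ± 0.376 and 0.994% ± 0.368 of miR396, with groups that overlapped. Without rdr1 replicate 1 the difference of rdr1 from WT, in percentage points, went from 0.128 to 0.0486 for the miR171 family, from 0.353 to 0.0014 for miR394 and from 0.110 to -0.102 for miR396.

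The level profiles of the families over the 6 libraries were compared with those of 58 families with a mean of at least 20. Each profile was centred on its own mean, and likeness was the mean absolute difference on the log2 scale. Nearest to the miR171 family were miR164, whose targets are NAC transcription factors that set organ boundaries (0.07), and miR2112 (0.09), against a median of 0.24 over the other families. Nearest to miR394 were miR165, which acts on leaf polarity genes (0.07), and miR319, which acts on TCP genes of leaf growth (0.08), against a median of 0.29. Nearest to miR396 were miR447 (0.06) and miR400 (0.07), against a median of 0.27. All of these profiles come from the same 6 libraries and share their differences in depth and fragment length.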

How the data were processed

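Small RNA from leaves was sequenced in 6 libraries, 3 of WT and 3 of rdr1, on an Illumina HiSeq instrument with single-end reads, per the labels' protocols. The authors deposited a normalised signal for each distinct sequence in each library; the table's columns are named by library, per the file headers. Per the submitters' processing notes the authors used TAIR10. The sources used here do not give how reads were trimmed, aligned, filtered and normalised. In every library 100% of values were whole multiples, within 0.01 of a read, of 8000000 divided by a whole number, taken here as the library total. Each listed sequence reached at least 20.07 in some library, so one below that throughout was not analysed here.

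Sequences were matched exactly to TAIR10.1 precursors, whose coordinates are given. Sequences with a mean of at least 5, and sums for 60 miRNA families, were fitted with limma (trend, two-sided) on log2(value + 1), which understates changes of low values; p-values were adjusted by Benjamini-Hochberg over all features, with a threshold of 0.05. For arm sums and 17 shares, exact permutation tests (two-sided) were used; shares of pairs, of miR396 3p, of 17 to 19 nt and of all MIR loci were added after the values were seen. The text names the listed annotated mature sequences, the most abundant sequence of each arm and locus, the most abundant member not of 21 nt, and, for each family, the 2 nearest families. Members and lists were chosen with earlier results of these data known. Equal replicate numbers do not pair the libraries. Precision is limited by the 3 libraries per genotype; members had from 1 read in a library. Of 6 pairs of libraries within a genotype, chi-square over its degrees of freedom ran from 8.59 to 52.1, so none was a repeat deposit. Of the tests, only the limma fit was tried on simulated reads with set changes and a fixed spread, and its outcome is not given here. Target windows allowed 1 bulged base opposite guide bases 5 to 10. Alternatives are in the closing section. Tests ran in limma 3.58.1 under R 4.3.3, with DESeq2 1.42.0 and edgeR 4.0.16 for alternatives, structures in RNAfold 2.7.2, and the rest in scipy 1.17.1, pandas 2.3.3, numpy 2.4.6 and matplotlib 3.10.9 under Python 3.11.15.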

Additional observations from a re-analysis of the deposited data

How the results depend on the processing

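No member passed under any alternative run; with a mean of at least 20 the test covered 25 of the 31 members, and otherwise all 31. The number of all sequences called, 39 as reported, was 24 with a pseudocount of 20, 15 with a mean of at least 20, 88 with edgeR and 142 with DESeq2 on recovered reads, 82 without WT replicate 1 and rdr1 replicate 1 together, and 8 to 56 with each library left out in turn. The family count, 0 as reported, was 1 with DESeq2, without both replicates 1, and with sequences of 20 to 22 nt only. With the replicate block it was 7 sequences and 0 families; same-numbered libraries deviated in opposite directions (correlations of deviations -0.72, -0.30 and -0.53), so the numbers are not taken to pair them.

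Signs did change. With median of ratios scaling the log2 ratios of the arm sums became -0.060 (miR171 family 5p), -0.087 (its 3p), -0.014 (miR394), -0.13 (miR396 5p) and -0.27 (miR396 3p), the last also -0.057 with scaling to the miRNA sum. The log2 fold changes of single sequences became -0.14 (miR171b-5p), -0.060 (miR171c-5p), -0.21 (miR396b-3p), -0.23 (miR396a-3p), -0.066 (miR171a-3p), -0.18 (20-nt miR396-5p), -0.15 (miR396a-5p), -0.017 (miR171b-3p) and -0.0053 (miR394) with that scaling, and those of the family sums -0.035 (miR171) and -0.16 (miR396). With scaling to the miRNA sum they were -0.028 (miR396b-3p), -0.055 (miR396a-3p) and -0.0019 (20-nt miR396-5p). With edgeR they were -0.20 (miR396b-3p), -0.11 (miR396a-3p), -0.093 (20-nt miR396-5p), -0.013 (miR396a-5p) and -0.015 (miR396 sum). With DESeq2 they were -0.071 (miR171b-5p), -0.053 (miR171c-5p), -0.35 (miR396b-3p), -0.23 (miR396a-3p), -0.12 (miR171a-3p), -0.073 (miR170-3p), -0.19 (20-nt miR396-5p), -0.12 (miR396a-5p), -0.045 (miR171b-3p), -0.020 (miR394) and -0.017 (miR396 sum). Without both replicates 1 they were -0.0091 (miR171c-5p), -0.028 (miR171a-3p), -0.13 (20-nt miR396-5p), -0.095 (miR394) and -0.097 (miR394 sum). The cause was not tested.

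With each library left out in turn, the log2 ratio ran from -0.042 to 0.64 for miR396 5p from -0.077 to 0.70 for miR396 3p, from 0.0075 to 0.59 for miR171 family 5p, from 0.084 to 0.75 for its 3p and from 0.076 to 0.64 for miR394. Fold changes ran from -0.015 to 0.73 (miR171c-5p), -0.053 to 0.73 (miR396b-3p), -0.072 to 0.58 (miR396a-3p), -0.15 to 0.64 (20-nt miR396-5p), -0.026 to 0.66 (miR396a-5p), 0.080 to 0.72 (miR171a-3p), 0.15 to 0.97 (miR170-3p), 0.14 to 0.74 (miR171b-3p), 0.0099 to 0.55 (miR171b-5p), 0.059 to 0.72 (miR394), -0.026 to 0.66 (miR396 sum), 0.096 to 0.76 (miR171 family sum) and 0.061 to 0.73 (miR394 sum). Differences in share, in percentage points, ran from -1.24 to 0.758 (5p of the miR171 family), -0.455 to 2.52 (5p of miR396), -0.583 to 0.380 (21 nt of miR396), -0.0483 to 0.0249 (MIR396b in miR396 5p), -0.874 to 2.0 (MIR171b or MIR171c in 3p), -5.46 to 0.739 (miR171b-5p of its pair), -4.78 to 2.72 (MIR396b in miR396 3p), -0.183 to 2.12 (miR170-3p of its pair), -0.102 to 0.311 (17 to 19 nt of miR396), 0.0486 to 0.180 (of the miR171 family), 0.0014 to 0.693 (of miR394) and -0.659 to 0.694 (miR396 in all MIR loci). With 2 libraries in a group these permutation tests cannot give a p below 0.2. Pseudocounts, filters and the block changed no sign. Members with few reads, down to 1 in a library, carry the largest counting error.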

Other observations

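Other miRNA families with known roles in leaf growth and form were measured in the same libraries. Of a list of 12 families (miR156, miR157, miR159, miR160, miR164, miR165, miR166, miR167, miR172, miR319, miR390 and miR393), all 12 had listed sequences and 0 passed the limma test in either direction, also at an unadjusted p under 0.05. Over all 60 families 0 passed (0%) and 1 (1.67%) had an unadjusted p under 0.05, so 0 of 12 is no more than the background. Their log2 fold changes ran from -0.86 to 0.56 with a median of 0.37, beside 0.35 over all 60 families, and the lowest adjusted p was 0.804. With median of ratios scaling the median of all families was -0.12.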
